A study of Rattus norvegicus with 2 samples.

Results

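The mouse capillary endothelial cells of a rat-mouse chimera were 739 cells of 1861 mouse cells in its skeletal muscle, and of 21154 barcodes of the series that passed the filters on depth and mitochondrial share. They were chosen by their own counts on mouse genes. Each had at least 500 unique molecular identifiers (UMIs, which count captured transcripts), at least 200 genes, at most 20% mitochondrial UMIs and at least 80% of its UMIs on mouse genes. Each held a UMI of at least 3 of 7 endothelial genes (Pecam1, Cdh5, Flt1, Kdr, Emcn, Gpihbp1 and Ptprb) and none of Ptprc, Pdgfra or Prox1, which mark immune cells, fibroblasts and lymphatic vessels. At most 1 gene was allowed from each of 3 further lists, arterial (Sema3g, Gja4, Gja5, Hey1), venous (Vwf, Selp, Ackr1, Lrg1) and cycling (Top2a, Mki67, Cdk1, Ube2c, Nusap1).

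The chimera was a Sprague Dawley (SD) rat that had received mouse induced pluripotent stem cells (iPSCs) at the morula stage. The iPSCs were Dmd mdx; Pax7-nGFP cells, in which the dystrophin mutation of the mdx mouse had been edited with CRISPR/Cas9 and a nuclear GFP reports Pax7, a gene of muscle stem cells. Muscle from the whole body of 1 chimera and of 1 SD rat without mouse cells was digested with collagenase, and live cells were sorted on a viability dye and sequenced with a 10x Genomics 3′ kit. Mouse cells here therefore come from 1 animal and 1 library, no age is given in the labels, and no mouse muscle was measured beside them. The rat capillary cells of the same library (567 cells) and of the SD rat (1068 cells), chosen by the same limits on rat genes, serve as the nearest comparison.

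Capillary endothelial cells line the smallest vessels, where oxygen, glucose, hormones and lipids pass into muscle fibres. In skeletal muscle the capillary wall is continuous, with caveolae rather than fenestrae, and its cells hold the proteins that bring fatty acids to the fibres. GPIHBP1 anchors lipoprotein lipase on the luminal face, CD36 binds the fatty acids set free from lipoproteins, and FABP4 carries them inside the cell. VEGF signalling through KDR maintains the capillaries, Notch signalling accompanies arterial identity, and NR2F2 is the transcription factor of venous identity.

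In the chimera matrix 118872850 UMIs were spread over 13299 barcodes, of which 12174 passed the filters. In that of the SD rat 70957559 UMIs lay in 10117 barcodes, and 8980 passed. There was 1 library per group, so no difference has a replicate check and no p-value is given. Intervals are exact 95% intervals that cover counting error only. The mouse capillary cells had a median of 5484 UMIs (580 to 61501) and 2049 genes, and 4.55% of their UMIs were mitochondrial. A median of 5.51% of their UMIs fell on rat genes (1.04% to 20.0%), more than in the other mouse cells, where the median was 2.40%. Scrublet called 444 of the 12174 chimera barcodes doublets (3.65%). Of the 739 cells it called 4 (0.541%), a share that the limits on genes of other cells can lower. Counted apart from these calls, 2 of the 739 cells carried a barcode that also occurs in the SD rat library, among 43 barcodes that both libraries share.

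The limit of 3 endothelial genes cut through few cells. All 7 genes were found in 393 cells (53.2%), 6 in 155, 5 in 70, 4 in 71 and 3 in 50. Cells with fewer genes were shallower, with a median of 1392 UMIs at 3 genes against 7129 at 7. Outside the limit stood 41 mouse cells that met every other condition with 2 genes and a median of 1228 UMIs. Their summed counts held 10810 counts per 1e6 mouse UMIs (CPM) of Fabp4, against 16265 in the cells with 3 genes, and 1220 CPM of Lyz2, a myeloid gene, against 27.7. A further 64 mouse cells with 3 or more endothelial genes were left out for a UMI of Prox1 (43), Ptprc (14) or Pdgfra (7). Of the members, 58 lay between 80% and 85% mouse UMIs and 578 at 90% or above, and 103 barcodes with 70 to 80% met all limits on genes.

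The 5 genes given as markers of the cell type were all high. Cdh5, the adhesion molecule of endothelial junctions, was found in 95.4% of the cells at 1496 CPM, and Pecam1 in 91.1% at 997 CPM. Flt1 and Kdr, the receptors of VEGF, stood at 1359 and 687 CPM, in 87.7% and 82.3% of the cells. Gpihbp1 was found in 87.0% at 1601 CPM, Ptprb in 81.5% at 740 CPM and Emcn in 79.3% at 632 CPM. These levels are a description, because the same genes chose the cells.

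Genes outside the rule were also those of endothelium, though a comparison with non-endothelial cells does not tell capillaries from other vessels. The comparison was with 462 mouse cells without any of the 7 endothelial genes and outside the vessel classes, which were deeper, with a median of 9720 UMIs against 5484. Over all genes compared, 1356 of 7305 (18.6%) were at least 2-fold higher in the capillary cells. All 18 genes of an endothelial identity list and all 20 of a capillary list were past 2-fold, with medians of 6.08 and 5.18 on the log2 scale. Outside the rule, the genes highest over non-endothelial mouse cells were Cldn5, the claudin of endothelial tight junctions (1088 against 2.56 CPM), the adhesion receptors Adgrl4 (633 against 1.39) and Adgrf5 (880 against 2.56), Cyyr1 (735 against 2.32) and Egfl7, a secreted factor of endothelial cells (872 against 3.25). Egfl7 was found in 87.6% of the capillary cells and 3.03% of the non-endothelial ones. Of all genes 1339 (18.3%) were at least 2-fold lower. All 16 immune genes, all 12 fibroblast genes and all 8 compared genes of MHC class II were at least 2-fold lower in the capillary cells. These counts are a description, because the choice of both groups favours them. The capillary cells were chosen for endothelial genes and without Ptprc or Pdgfra, the others for having none of the 7 endothelial genes.

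Of 14 fatty acid genes compared with non-endothelial mouse cells, 9 were at least 2-fold higher and 1 lower in the capillary cells, with a median of 2.50. Fabp4 held 18142 CPM (18010 to 18274), close to Tmsb4x, which binds actin monomers and was the highest gene outside the ribosomal and mitochondrial ones at 18167 CPM. Fabp4 was found in 98.8% of the capillary cells and in 34.4% of the non-endothelial mouse cells. After each cell was thinned to 1000 mouse UMIs, those shares were 95.9% and 4.96%. Cd36 reached 1949 CPM in 93.6% of the cells (17.3% of non-endothelial ones) and Fabp5, a second lipid chaperone, 1322 CPM. Meox2 and Tcf15, the transcription factors that together drive fatty acid uptake in heart and muscle endothelium, stood at 372 and 356 CPM. Lipoprotein lipase itself (Lpl) was found at 247 CPM, Pparg, the nuclear receptor that induces Fabp4 and Cd36, at 114 CPM and Lipe, hormone-sensitive lipase, at 92.8 CPM. The transporters Slc27a1, Slc27a3, Slc27a4 and Mfsd2a each had under 4 CPM, and for Slc27a1 no cell of 739 had a UMI, which allows a share of up to 0.406% of cells with a UMI at this depth and says nothing of cells that express it below detection.

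Of 12 transport genes 7 were higher over non-endothelial mouse cells and 0 lower, and of 15 junction genes 13 were higher and 1 lower. Aqp1, the water channel, reached 1066 CPM and Aqp7, which passes glycerol, 162 CPM. Cav1, which forms caveolae, was found in 93.1% of the cells (25.5% of non-endothelial ones) at 2160 CPM, with Cavin2 at 1126 and Cav2 at 577 CPM. Plvap, which forms the diaphragms of fenestrae, had 25.2 CPM and was found in 3.52% of the cells against 5.41% of the deeper non-endothelial cells, or in 1.71% and 0.901% after thinning. Its 101 UMIs lay in 26 cells, with up to 27 in 1 cell. Genes of the blood-brain barrier went both ways. Slco1a4 and Slc38a5 had 0 UMIs and Ocln 1.50 CPM, while the efflux pump Abcg2 reached 175 CPM, in 48.7% of the cells, and Cldn5 1088 CPM. Among junction genes, Magi1 (952 CPM), Esam (522 CPM) and Gja1 (473 CPM) followed Cldn5. Of the basement membrane, Sparc (4110 CPM), Col4a1 (2897 CPM) and Col4a2 (1621 CPM) led, and Igfbp7, which is laid down around vessels, reached 5201 CPM.

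Signalling genes included Nrp1, the VEGF coreceptor, at 843 CPM, Klf2, the shear-induced factor, at 1709 CPM in 80.7% of the cells (34.6% of non-endothelial ones), and Cxcl12, the chemokine that holds CXCR4-bearing cells, at 1612 CPM. Kitl, the ligand of KIT, reached 884 CPM and Pdgfb, which recruits pericytes, 220 CPM. The angiopoietin Angpt2 had 97.5 CPM and Angpt1 no UMI. Notch1 (131 CPM) and Notch4 (68.9 CPM) were the leading receptors of their list, with Dll4 at 84.8 CPM and the target Hes1 at 381 CPM. Tcf4 (1739 CPM), Mecom (865 CPM), Ets1 (476 CPM) and Epas1 (462 CPM) led the transcription factors.

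**Figure D1:**
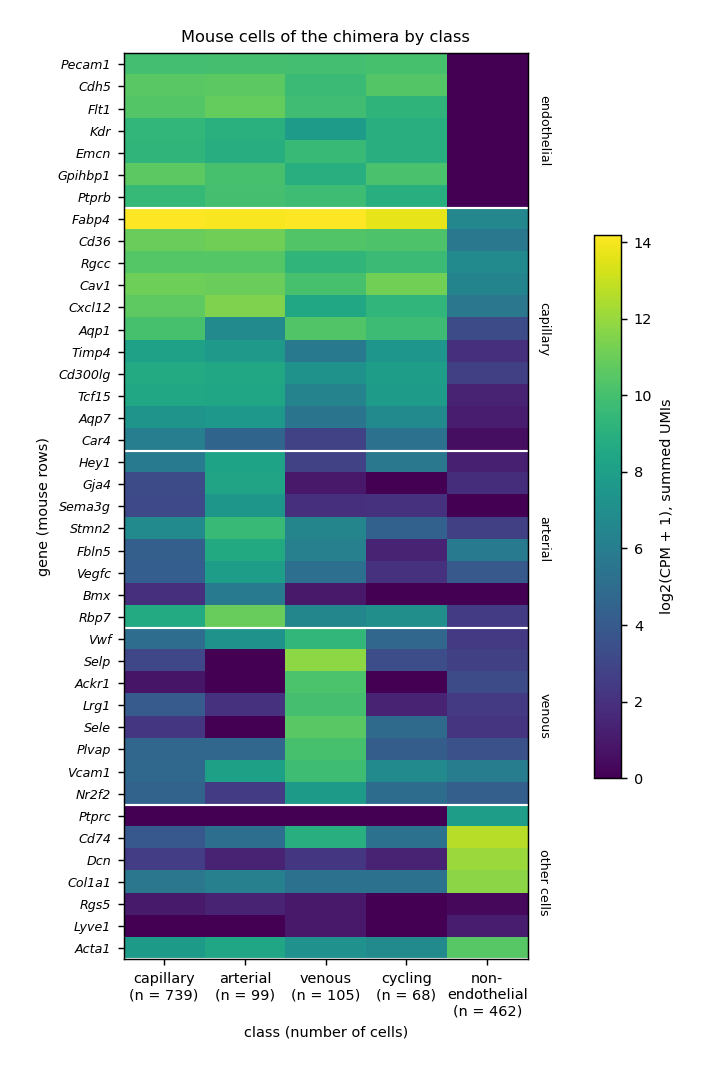
Summed levels, log2(CPM + 1), of mouse genes (vertical axis, grouped by role) in 5 classes of mouse cells of the chimera (horizontal axis, with the number of cells). The endothelial genes at the top chose the classes; Fabp4 is the brightest row in all 4 vascular columns, while Sele, Plvap and Vcam1 are highest in the venous column, at 1496, 1080 and 867 CPM.

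The cells also held transcripts of other cell types. Of 12 pericyte and smooth muscle genes, 10 were found in under 5% of the cells, 1 of them in none, and Rgs5 and Pdgfrb stood at 0.998 and 0.748 CPM. The highest were Tagln, at 52.4 CPM in 5.95% of the cells, and Des, at 35.4 CPM in 15.6%. All 16 immune genes were found in under 5% of the cells, 5 of them in none, and Cd74, the MHC class II invariant chain, had 14.2 CPM against 6516 in non-endothelial mouse cells. Of 8 genes of lymphatic vessels, 7 were found in under 5% of the cells, of which Lyve1 and Ccl21a in none, while Flt4, which blood capillaries can also express, was found in 17.1% at 39.7 CPM. The fibroblast list summed to 142 CPM, against 21571 CPM in non-endothelial cells, and Col1a1 was found in 21.2% of the capillary cells at 49.1 CPM.

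The genes of the muscle list summed to 764 CPM on mouse genes. Of these, Mylpf, a myosin light chain of fast fibres, was found in 64.3% of the cells and Acta1, skeletal actin, in 54.1% (60.4% and 59.1% of non-endothelial ones), while Pax7, Myf5 and Myod1 had no UMI. Further UMIs lay on the rat partners, which held 20046 UMIs against 3058 on the mouse genes of the pairs, or 86.8%. Of the 268971 UMIs on rat genes in the 739 cells, 7.45% belonged to the muscle list and 22.4% to mitochondrial genes, against 1.11% and 7.44% in rat capillary cells. The part of this signal in the species comparisons was not tested.

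Most globin UMIs were held by few cells, though 257 of the 739 cells (34.8%) had a globin UMI. Hbb-bs and Hba-a1 were among the 15 highest genes at 4893 and 3536 CPM, but 9 cells held 97.0% of the 40865 globin UMIs, and the median cell had 0. Without these 9 cells the levels were 157 and 109 CPM, and Fabp4 stayed at 18108 CPM.

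Arterial and venous mouse endothelial cells of the same muscle differed from the capillary cells on genes outside the rule. The 1032 mouse vascular cells fell into 739 capillary (71.6%, 68.8 to 74.3), 99 arterial (9.59%), 105 venous (10.2%), 68 cycling (6.59%) and 21 with genes of several classes. The limits allow few genes of another class, which deeper cells show more often, and the venous cells had a median of 10208 UMIs and the arterial ones 6829, against 5484. After thinning to 1000 UMIs, the capillary share was 89.7% of 823 cells.

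Against the arterial class, the capillary cells had lower levels of most arterial list genes. Of 6505 genes compared, 277 were at least 2-fold higher in the arterial class (4.26%), and of the 20 genes of the arterial list 12 were, with none lower and a median difference of 2.24. Others were within 2-fold, such as Notch4, at 68.9 CPM in capillary and 69.7 CPM in arterial cells. Fbln5, which builds elastic fibres, had 18.5 CPM in capillary and 401 CPM in arterial cells, Stmn2 106 and 796 CPM, and Bmx, an arterial kinase, 2.74 and 58.9 CPM. Vegfc had 18.0 and 242 CPM and the Notch ligand Jag1 23.7 and 147 CPM. The capillary list did not set these classes apart as a whole, with 2 of 20 genes past 2-fold in each direction, where 4.14% of all genes were lower in the arterial class. Aqp1 was lower in the arterial class (112 against 1066 CPM), as was Car4 (23.2 against 66.6 CPM), while Rbp7, a retinol-binding protein, was higher (1900 against 408 CPM), as was Btnl9 (105 against 41.7 CPM). Fabp4 (17093 CPM) and Cd36 (2233 CPM) were near their capillary levels.

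Against the venous class, the capillary genes separated further. Of 6373 genes, 430 were at least 2-fold higher in the venous class (6.75%), and of the 16 venous genes compared 12 were, with none lower and a median of 2.34. Sele, the selectin that slows leukocytes on venules, had 3.74 CPM in capillary and 1496 CPM in venous cells. Vcam1 had 26.9 and 867 CPM, Nr2f2 21.7 and 212 CPM, and Slco2a1, which takes up prostaglandins, 3.49 and 206 CPM. Of all genes 530 (8.32%) were at least 2-fold lower in the venous class, and of the 20 capillary genes 13 were, among them Cxcl12 (349 against 1612 CPM), Aqp7 (42.3 against 162 CPM) and Car4 (5.65 against 66.6 CPM). The 1 gene higher was Plvap, with 1080 CPM in venous and 25.2 CPM in capillary cells. Aqp1 (1313 CPM) and Fabp4 (18789 CPM) were not lower in the venous class.

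Among the capillary cells themselves, 463 had no arterial and no venous rule gene, 147 had 1 arterial gene, 81 had 1 venous gene and 48 had 1 of each. Hey1, a Notch target, was the arterial gene most often found (137 cells), and Vwf, which binds platelets, the venous one (90 cells). Median depths of the 4 groups were 4749, 6523, 5440 and 7653 UMIs, so deeper cells also carry these genes more often. Between cells with 1 arterial gene and cells with neither, 50 of 6300 genes were at least 2-fold higher (0.794%), and 3 of 15 arterial genes outside the rule were. Stmn2 stood at 231 against 51.8 CPM, Fbln5 at 31.9 against 5.00 CPM and Vegfc at 25.3 against 11.8 CPM. Rbp7 (814 against 242 CPM) and Btnl9 (82.4 against 26.4 CPM) were also higher, and both were higher in the arterial class as well. Of all genes 1.22% were at least 2-fold lower, among them Nr2f2, at 10.99 against 24.5 CPM.

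On the venous side 1 gene of the list outside the rule was past 2-fold. Between cells with 1 venous gene and cells with neither, 128 of 6435 genes were at least 2-fold higher (1.99%), and of 12 venous genes it was Sele, at 26.1 against 1.36 CPM from 11 and 3 UMIs. Of all genes 3.06% were at least 2-fold lower, among them Car4, with 23.7 against 73.6 CPM, while Plvap had 33.2 against 14.1 CPM from 14 and 31 UMIs. All these differences lie between groups of cells of 1 library.

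Mouse cells made up 18.0% of the chimera cells assigned to a species, but 57.0% of its vascular endothelial cells (54.7 to 59.3) and 56.6% of its capillary cells (739 of 1306, 53.8 to 59.3). The mouse share was 79.2% of arterial cells (71.0 to 85.9), 68.0% of cycling cells and 46.1% of venous cells (39.5 to 52.8). Once thinned to 1000 UMIs, 49 mouse and 29 rat cells were venous, 11 and 0 arterial, and 24 and 9 cycling. The shares of these classes therefore changed with depth. The same limits do not find the same cells in both species. Lrg1, a venous rule gene, was found in 46.0% of the rat and 2.17% of the mouse capillary cells, and rat capillary cells had a median of 4067 UMIs. With every cell thinned to 1000 UMIs of its own species, the mouse share of capillary cells was 60.0% (57.2 to 62.7). It was 94.6% when 90% of UMIs had to lie on the cell's own genes, because 33 of the 567 rat cells then remained against 578 of the 739 mouse cells.

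Mouse and rat capillary cells of the chimera were next compared gene by gene, over genes with the same symbol in both species. Mouse Car4 was an exception, paired by hand with rat Ca4. Of 16136 pairs, 6426 reached 20 CPM in either group. Differences are log2 ratios after 1 CPM was added to each level, mouse over rat, and called past 2-fold. The median was 0.04 and 66.3% of pairs lay within 2-fold, while 1042 pairs were called higher (16.2%) and 1124 lower (17.5%) in mouse cells. At the 90% species limit, with 33 rat cells, the median was 0.58 with 2225 pairs higher and 808 lower. With the SD rat in place of the mouse cells, 62 of the same pairs were past 2-fold higher and 131 lower in rat capillary cells of the chimera.

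These ratios set mouse rows against rat rows, and each group held UMIs on the genes of both species. UMIs on the other species' gene are called cross-mapped here as a label only. Whether they were misplaced reads or free RNA of the other species was not tested. In rat capillary cells 47.8% of the pairs had 5% or more of their UMIs on the mouse gene, and in mouse capillary cells 30.1% had as many on the rat gene. Of the pairs called higher in mouse, 74.1% were of the first kind, and of those called lower, 81.4% were of the second, a share that a low mouse level itself raises. Cd81, a widely found tetraspanin chosen here after its values were seen, had 1046 CPM in mouse cells, 0 in rat cells and 0.558 in SD rat cells. The contrast also reached other cells. Of 706 pairs called higher and compared in non-endothelial cells, 61.6% were past 2-fold the same way there, against 14.9% of all 5352 pairs compared. For 924 pairs called lower the share was 46.0%, where 617 of the 5352 pairs were past 2-fold lower there. Among 1987 pairs with under 5% on the other species' gene in each group, 264 were higher and 147 lower in mouse, with a median of 0.13.

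**Figure D2:**
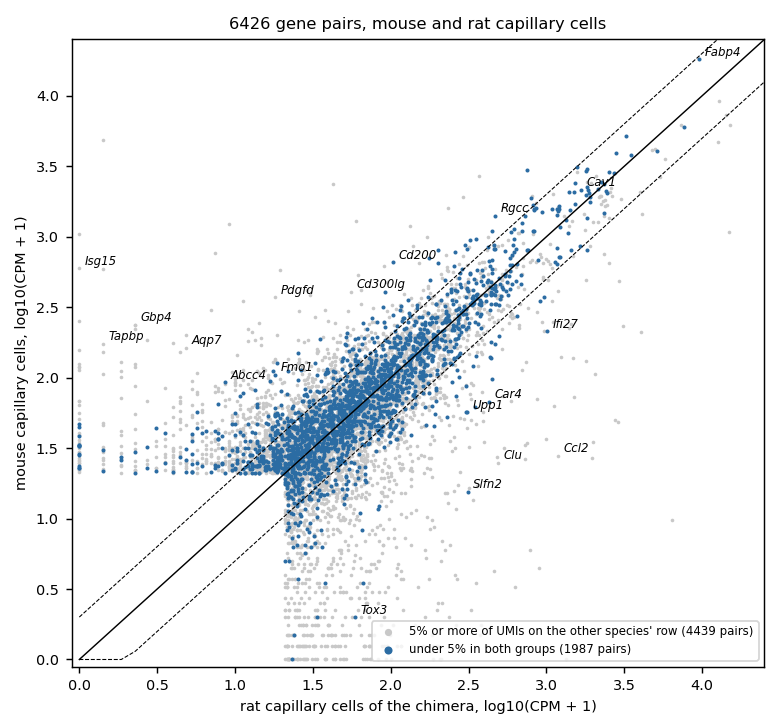
Levels of 6426 gene pairs, log10(CPM + 1), in rat (horizontal axis) and mouse (vertical axis) capillary cells of the chimera, with equality as a solid line and 2-fold as dashed lines. Blue points have under 5% of their UMIs on the other species' gene in both groups (1987 pairs); Isg15 and Tapbp lie near the left edge, Tox3 near the lower edge, and Fabp4 at the upper right.

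Among the 1987 pairs, the highest mouse ratios with at least 50 CPM were those of Abcc4, a cyclic nucleotide and prostaglandin exporter, with 91.6 CPM in mouse and 7.67 CPM in rat cells (log2 ratio 3.42), B4galt4 (55.6 and 4.69 CPM) and Nt5dc3 (63.6 and 6.82 CPM). Cd200, the ligand of an inhibitory receptor on myeloid cells, had the highest level of the 12, with 659 CPM in mouse and 102 CPM in rat cells, a ratio of 2.68 (2.50 to 2.89). It was found in 76.0% of mouse and 29.5% of rat cells, and the SD rat had 84.3 CPM. Oasl2, Gnb4, Tmem234, Knop1, Smim7, St3gal6, Fmo1 and Cers4 completed the 12, with ratios from 2.50 to 2.79. Abcc4, Gnb4, Tmem234 and Smim7 were among those past 2-fold higher in mouse non-endothelial cells too, whereas B4galt4 (0.01), Fmo1 (−0.07) and Knop1 (0.34) were not. Fmo1, a flavin monooxygenase, was at 104 CPM in mouse, 17.0 CPM in rat and 3.63 CPM in SD rat cells.

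The lowest mouse ratios belonged to Tox3, with 0.998 CPM in mouse and 57.9 CPM in rat cells (−4.88), Slfn2 (14.5 and 311 CPM) and Rpp38 (2.49 and 65.2 CPM). Slfn2 went the other way in non-endothelial cells, with 255 CPM in mouse and 79.4 CPM in rat. Car4, the carbonic anhydrase held on the luminal face of muscle capillaries, had 66.6 CPM in mouse and 429 CPM in rat cells, a ratio of −2.67 (−2.89 to −2.49). It was found in 22.1% of mouse and 57.0% of rat capillary cells, and the SD rat had 536 CPM. Car4 was near 0 in non-endothelial cells of both species, at 0.465 and 0.336 CPM. Ifi27, which interferon induces, had 212 CPM in mouse and 1008 CPM in rat cells, with −0.78 at the 90% species limit. Cadps2, Adpgk, Pigf, Mocos, Rnpep, Upp1 and Atp10d were the others, from −2.99 to −2.41. Rnpep, Upp1 and Atp10d differed by under 2-fold in non-endothelial cells, whereas Cadps2, Adpgk, Pigf and Mocos were past 2-fold lower in mouse there too.

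The gene lists are described by the pairs compared outside the rule, beside the 16.2% and 17.5% over all pairs. Of 17 endothelial identity pairs, 7 were higher and 0 lower in mouse, with a median of 0.87, and 5 of 12 were higher among pairs with little cross-mapping. Ecscr, which marks endothelial filopodia, had 406 against 90.7 CPM (2.15) and Egfl7 872 against 298 CPM (1.55), while Tie1 (212 against 202 CPM) and Eng (465 against 600 CPM) were within 2-fold. Of 18 capillary pairs 4 were higher and 1 lower, with a median of 0.49. Rgcc, a cell cycle regulator high in muscle capillaries, had 1410 against 466 CPM (1.60), and Cd300lg, a mucin-like receptor that carries leukocyte ligands, 407 against 54.5 CPM with 31.8 CPM in the SD rat. Aqp7 had 162 against 3.83 CPM, with 25% of its UMIs in rat cells on the mouse gene. The 1 lower pair was Car4. Cd36 and Ly6c1 had no rat partner by symbol.

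Of 12 fatty acid pairs 2 were higher and 0 lower, with a median of 0.17. They were Pparg, at 114 against 40.0 CPM with 34.3% of its UMIs in rat cells on the mouse gene, and Meox2, at 372 against 172 CPM. Fabp4 was at 18142 against 9548 CPM (0.93) and at 6851 CPM in the SD rat, whereas Lpl was at 247 against 459 CPM (−0.89). Of 12 transport pairs 3 were higher and 2 lower, and of the 6 with little cross-mapping 0 were higher and 1 lower. Abcg2, an efflux pump, had 175 against 2.98 CPM with 1.12 CPM in the SD rat. Of 13 shear and nitric oxide pairs 1 was past 2-fold, Edn1, which makes the vasoconstrictor endothelin, at 89.1 against 7.67 CPM. Klf2 was at 1709 against 1519 CPM in the chimera and 639 CPM in the SD rat, and Nos3, the nitric oxide synthase, at 104 against 182 CPM.

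Of 15 VEGF and tip cell pairs 4 were higher and 2 lower, with a median of 0.58. Of the 6 with little cross-mapping 1 was higher and 1 lower, with a median of −0.16. Pdgfb had 220 against 11.1 CPM, with 82.8% of its UMIs in rat cells on the mouse gene. Esm1, a tip cell proteoglycan, had 92.1 against 245 CPM. Of 10 Notch pairs 1 was higher and 2 lower, and Nrarp, a target that dampens Notch, had 49.4 against 328 CPM (−0.88 at the 90% species limit). Of 28 transcription factors 6 were higher and 2 lower, and of the 12 with little cross-mapping 1 was higher and 2 lower. Sox17 (354 against 372 CPM) and Ets1 (476 against 438 CPM) were nearly level. Of 12 TGF-beta and BMP pairs 4 were higher and 0 lower, among them Id1 (571 against 231 CPM), a BMP target. The 3 with little cross-mapping held 0 higher and 0 lower, with a median of −0.37 against 0.56 for all 12. Of 18 arterial pairs 3 were higher and 7 lower, and of 14 venous pairs 2 were higher and 4 lower. With little cross-mapping, 4 arterial pairs held 0 higher and 0 lower, and 5 venous pairs 2 higher and 0 lower with a median of 0.88, against −0.07 for all 14. Stmn2, the arterial gene of the mouse cells, had 106 against 0.426 CPM, a level of 1 UMI. Of 14 junction pairs 1 was higher and 2 lower, of 19 basement membrane pairs 3 and 3, of 10 caveolar pairs 0 and 2, and of 14 immediate early and heat shock pairs 2 and 2. Col4a2 was at 1621 against 526 CPM, and Fcgrt, the receptor that recycles antibodies, at 63.1 against 268 CPM (−0.94 at the 90% limit).

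**Figure D3:**
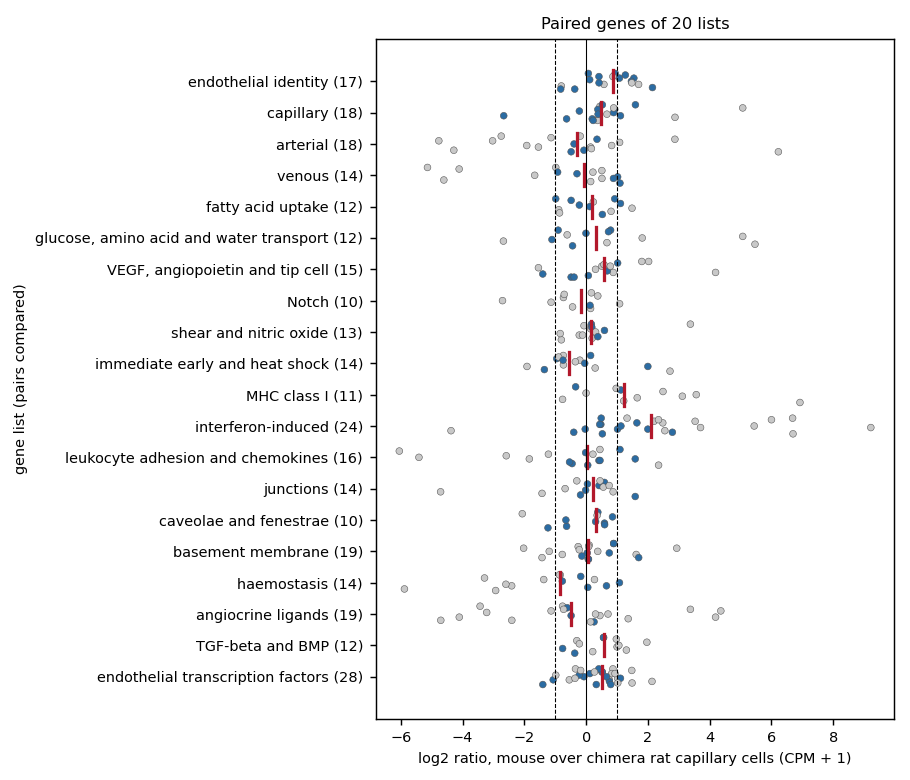
Log2 ratio of mouse over rat capillary cells of the chimera (horizontal axis, 1 CPM added) for the compared pairs of 20 gene lists (vertical axis, number of pairs in brackets). Each point is a pair, blue with under 5% of UMIs on the other species' gene in both groups and grey otherwise, red bars are medians and dashed lines 2-fold; the interferon-induced list has the highest median over all pairs, 2.10, but 0.53 over its blue points, below the 0.68 of endothelial identity and the 0.88 of the venous list.

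Of 24 interferon-induced pairs 17 were higher and 1 lower, with a median of 2.10, and of the 11 with little cross-mapping 5 were higher and 0 lower, with a median of 0.53. Cxcl10, the chemokine of interferon-gamma, had 800 against 199 CPM (2.00) and was found in 25.03% of mouse and 10.8% of rat cells. Cxcl9 had 434 against 173 CPM and Oasl2, an antiviral protein, 76.8 against 10.2 CPM. Gbp4 (236 against 1.28 CPM), Ifit1 (234 against 1.28 CPM) and Rsad2 (302 against 5.96 CPM) had 66.7%, 50.0% and 26.3% of their few UMIs in rat cells on mouse genes. Isg15 had 596 CPM in mouse and 0 in rat capillary cells. Its rat gene held 0.0395 CPM in rat non-endothelial cells and 0.558 CPM in the SD rat. Rat genes near 0 in all rat cells, as those of Cd81 and Tapbp also were, raise the medians of the lists they are in, and how well the rat annotation captures them was not tested. Irf9, a transducer of interferon signals, likewise had 63.1 CPM against 0. The most abundant genes of the list were nearly level, with Ifitm3 at 3925 against 2799 CPM, Ifitm2 at 1664 against 1196 CPM and Bst2 at 1304 against 1332 CPM. Against non-endothelial mouse cells of the same library, 25 of 28 genes of the list were at least 2-fold higher in mouse capillary cells, with Iigp1, a GTPase without a compared rat partner, at 1771 against 99.2 CPM.

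MHC class I genes followed. The classical genes H2-D1 (2809 CPM) and H2-K1 (2402 CPM) were found in 96.3% and 97.0% of the cells (82.5% and 80.7% of non-endothelial ones) and have no rat partner by symbol. B2m, their light chain, had 4040 CPM in mouse, 5116 CPM in rat and 4197 CPM in SD rat cells. Of 11 pairs of the list 7 were higher and 0 lower, with a median of 1.22, but 2 pairs had little cross-mapping. Psmb9, an immunoproteasome subunit, was 1 of these, at 262 against 120 CPM. Tapbp had 172 against 0.426 CPM, and its rat row was near 0 in non-endothelial rat cells too, at 0.138 CPM.

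Of 14 haemostasis pairs 1 was higher and 6 lower, with a median of −0.85, and of the 5 with little cross-mapping 1 was higher and 0 lower. Plat, the tissue plasminogen activator, had 31.4 against 317 CPM (375 in the SD rat), Procr, the receptor of protein C, 51.1 against 277 CPM, and Tfpi2 14.2 against 115 CPM (−0.73 at the 90% species limit). Of 16 adhesion and chemokine pairs 3 were higher and 5 lower, and of the 8 with little cross-mapping 2 were higher and 0 lower. Ccl2, which draws monocytes, had 26.9 against 1192 CPM, and Cxcl1 238 against 1434 CPM. Both were higher still in rat non-endothelial cells, at 6598 and 7799.9 CPM, and 81.4% of the Ccl2 UMIs in mouse capillary cells lay on the rat gene. Clu had 24.0 against 486 CPM, a level in rat capillary cells above the 101 CPM of other rat cells. Of the 1124 lower pairs, 43.6% were higher in rat non-endothelial than in rat capillary cells, as were 41.7% of the 1042 higher pairs and 34.9% of all pairs. Genes of other cell types were mostly lower in mouse, where 17.5% of all pairs were. This held for 11 of 11 fibroblast, 8 of 9 pericyte and smooth muscle, 9 of 10 muscle and 5 of 5 immune pairs, with 0 higher. Rgs5 had 0.998 CPM in mouse and 235 CPM in rat capillary cells, in 13.2% of the latter. The part of free rat RNA in these pairs was not tested. Icam1 went the other way, at 252 against 118 CPM, as did Cd34, a sialomucin, at 478 against 93.3 CPM. Of 19 angiocrine pairs 4 were higher and 6 lower, with Pdgfd at 370 against 17.0 CPM and Bmp4 at 34.9 against 190 CPM (−0.72 at the 90% species limit).

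When the comparison was kept to 1727 pairs at least 2-fold above non-endothelial cells in either species, 478 were higher (27.7%) and 284 lower (16.4%), with a median of 0.35. Of these, 677 had little cross-mapping, with 132 higher and 89 lower. This restriction was chosen after the data were seen.

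The cells varied widely around these sums. Per cell and per 10000 mouse UMIs, Fabp4 had a median of 164 UMIs with quartiles of 75.7 and 249, and Cav1 19.2 with quartiles of 12.4 and 27.6. Gpihbp1 had a median of 13.7 and Cd36 of 17.2. By raw UMIs, which are not adjusted for depth and so weigh deeper cells more, the top 10% of cells held 33.6% to 35.0% for these 4 genes. Rbp7 was less even, with a median of 0 and 68.0% of its raw UMIs in the top 10% of cells, and so were Car4 (66.7%) and Cxcl9 (75.6%). Cxcl10 was held by few cells, with 90.9% of its raw UMIs in the top 10% and up to 270 UMIs per 10000. Hspa1a and Jun had medians of 16.3 and 10.7, and reached 327 and 163.

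**Figure D4:**
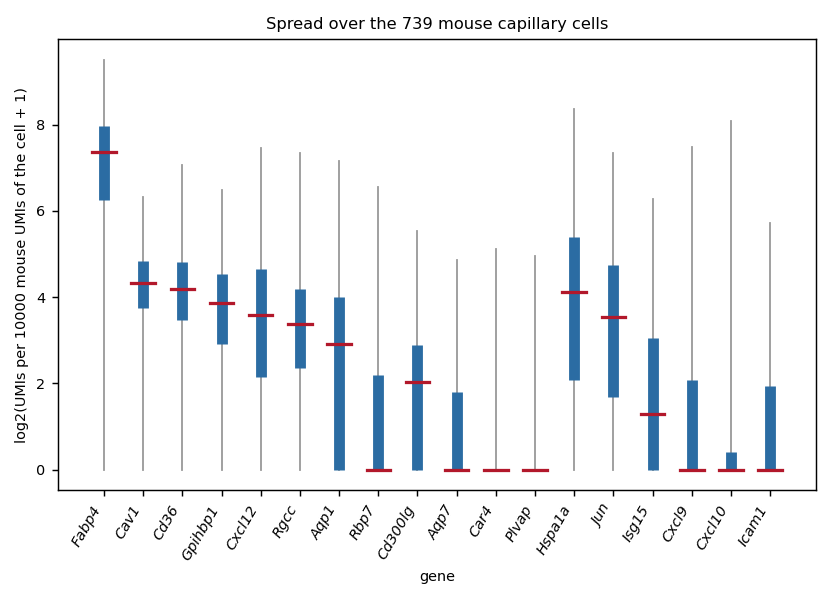
Level per cell, log2(UMIs per 10000 mouse UMIs + 1), of chosen genes (horizontal axis) over the 739 mouse capillary cells. Red bars are medians, blue bars the quartiles and thin lines the whole range; Fabp4 is found at high level in most cells, whereas Rbp7, Aqp7, Car4, Plvap, Cxcl9, Cxcl10 and Icam1 have medians of 0.

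Clustering of the 739 cells on mouse genes gave 5 subclusters, which are described by their leading genes and not named. Differences between them are not tested, because the same genes made them. Subcluster 1 (231 cells, median 6889 UMIs) was led by Mt1, a metallothionein (522 against 32.0 CPM in the rest), Emp1 (868 against 157), Adamts4 (670 against 120), Sgms2 and Procr. It also had the highest level of Ifit1 among subclusters 1 to 4, 469 CPM against 45.9 to 117, and Cxcl10 at 1495 CPM. Subcluster 2 (198 cells, 5421 UMIs) was led by Rassf9, Sox18, an endothelial transcription factor (177 against 64.3 CPM), Denn2b, Thsd1 and Aplnr, the apelin receptor (225 against 85.8 CPM). Pdgfb (414 CPM), Apln (111 CPM) and Nrp1 (1247 CPM) were highest there, and Atf3 (161 CPM), Egr1 (180 CPM) and Hspa1a (1294 CPM) lowest among subclusters 1 to 4.

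Subcluster 3 (181 cells, 5687 UMIs) was led by Wdr95, Nfe2l3, Swt1, Pde4c and Hspa4l, a heat shock protein. It held the highest levels of Hspa1a (6063 CPM) and Jun (3713 CPM) among subclusters 1 to 4, genes of the heat shock and early stress responses. Subcluster 4 (120 cells) was shallow, with a median of 2085 UMIs, 9.76% of UMIs on rat genes and 7.83% on Rn18s-rs5, and was led by Ifi27l2a, Timm22, Timp4, Cox17 and Mcfd2. Subcluster 5 (9 cells, 17479 UMIs) was led by Hba-a1, Hbb-bt, Hbb-bs, Hba-a2 and Alas2, genes of red cell precursors, and held 88.3% of the globin UMIs. Its cells were thus not all among the 9 richest in globin, which held 97.0%. Over the 5 subclusters, Fabp4 ranged from 15170 to 26070 CPM and Car4 from 53.1 to 107 CPM, whereas Btnl9 had 0 CPM in subcluster 4 and 52.1 CPM in subcluster 3.

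**Figure D5:**
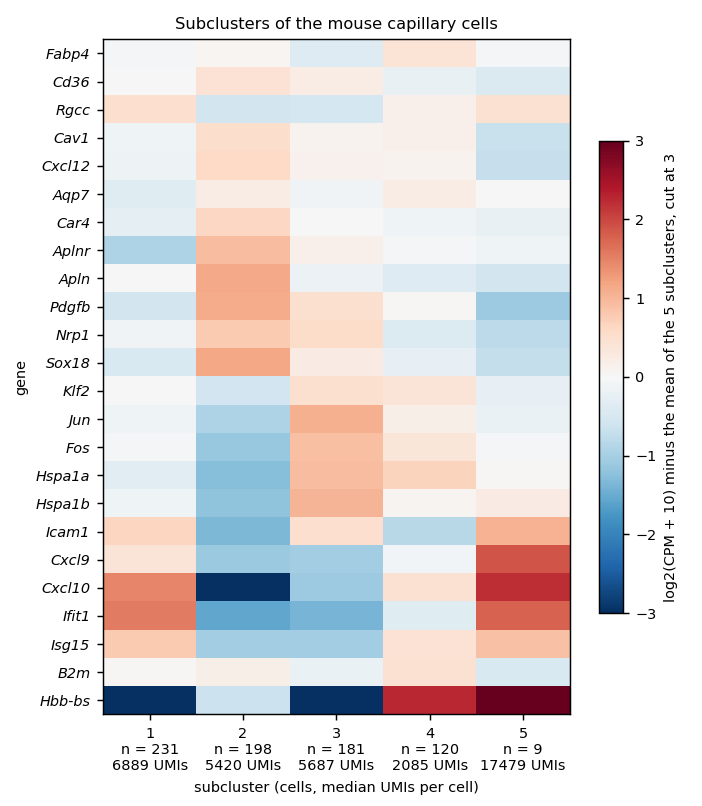
Level of chosen genes (vertical axis) in the 5 subclusters of the mouse capillary cells (horizontal axis, with cells and median UMIs), as log2(CPM + 10) minus the mean of the 5, drawn between −3 and 3. Fabp4 and Cd36 are near white throughout, subcluster 3 is high for Jun and Hspa1a, and Hbb-bs is highest in subcluster 5.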

How the data were processed

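Single-cell RNA libraries (10x Genomics 3′ v3.1) of 1 chimera and 1 SD rat were used. The authors deposited unnormalised UMI counts for each gene in each barcode, obtained with Cell Ranger 7.1.0 according to the submitters' processing notes, which name the builds mRatBN7.2 and GRCm39. The chimera matrix held rat and mouse genes together, so reads of conserved transcripts can land on the wrong species.

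Counts were read with Python 3.11.15, numpy 2.4.6, scipy 1.17.1 and pandas 2.3.3. Levels are summed UMIs per 1e6 UMIs of a cell's own species, without 13 mitochondrial genes and Rn18s-rs5. Levels of different genes are not divided by length, since the kit counts 3′ ends. Pairs were matched by symbol, except mouse Car4, which was paired by hand with rat Ca4. They were compared at 20 CPM or more in either group. Shares were thinned to 1000 UMIs per cell. Intervals are exact (Clopper-Pearson or Poisson), and a count of 0 was given the limit of 3 counts. Scrublet calls were reported and not removed. Subclusters were made with scanpy 1.11.5 and leidenalg 0.10.2 (resolution 0.5, 2000 variable genes, 30 components, 15 neighbours), and scripts were tested on simulated data.

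Named genes were the rule genes and markers, of each list the 4 highest in the members and those past 4-fold at 50 CPM, the 15 highest, the 12 highest and 12 lowest pairs with under 5% cross-mapping, the 12 highest over non-endothelial cells and 5 leading genes of each subcluster. Other list genes were named after their values were seen. The members and the 31 gene lists were chosen with earlier results of these data known. No sequence is shown, because no mouse sequence table was used here.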

Additional observations from a re-analysis of the deposited data

How the results depend on the processing

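No paired analysis was possible because each group had 1 library. Of 58 values of the main results under alternatives, 16 moved. These values were only sorted into same or moved, and the cause of these moves was not tested. At a species limit of 90%, the capillary share of mouse vascular cells was 68.6%, the mouse share of capillary cells 94.6% and the pairs higher in mouse 2225, with 33 rat cells left. With no arterial or venous gene allowed, there were 463 cells, the share was 44.9% and the mouse share 69.6%. At 1000 UMIs per cell the share was 89.7% and the mouse share 60.0%. Pairs higher and lower in mouse numbered 326 and 342 at 100 CPM or more, 2181 and 2699 with no minimum, 264 and 147 without cross-mapped pairs, and 478 and 284 among pairs high in endothelium, an alternative chosen after seeing the data. Without the 9 globin-rich cells, also chosen after seeing the data, they were 1065 and 1108. The balance of the calls was not stable. In the main run 1042 pairs were higher and 1124 lower. More were higher than lower at the 90% species limit, without cross-mapped pairs and among pairs high in endothelium. Of 600 log2 ratios of 75 named pairs under alternatives, 463 stayed within their interval, 137 moved and 0 reversed. These pairs were named for their large ratios, and a pair without any UMI in a group could not be counted as moved. At 90%, the pairs that came within 2-fold included Bmp4, Fcgrt, Ifi27, Nrarp and Tfpi2.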

Other observations

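The EGFP reporter had no UMI in any of the 739 capillary cells, and the whole chimera library held 9, so no share of cells is drawn from it. Of 11 pluripotency genes 8 had no UMI in these cells and Pou5f1 stood at 0.998 CPM, while Klf4 and Myc, which many cells express, stood at 309 and 34.4 CPM.

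Y-linked genes differed between the species of cell. In the 1861 mouse cells the mouse genes Eif2s3y and Kdm5d had 0 UMIs, Uty 4 and Ddx3y 21, of which the capillary cells held 0, 0, 1 and 4. In the 8477 rat cells the rat genes had 5455 UMIs of Eif2s3y, 4444 of Uty, 822 of Kdm5d and 1 of Ddx3y. The same rat cells held 238 UMIs on the mouse gene of Ddx3y, 143 on that of Uty, 11 on Kdm5d and 4 on Eif2s3y. The mouse cells held 24 UMIs on rat Eif2s3y, 20 on rat Uty, 7 on rat Kdm5d and 0 on rat Ddx3y. From which species the Ddx3y and Uty UMIs of the mouse cells came was not tested.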
